A study of Homo sapiens with 18 samples.

Results

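The response to TPCK was compared between DG75 and Raji, human cell lines grown from Burkitt lymphoma, a tumour of B cells. For each gene the change after 1 h of 75 µM TPCK in Raji was subtracted from the change in DG75, so a positive difference means a higher change in DG75. The comparison rests on 12 of the 18 bead arrays of the study, 3 in each of 4 groups: untreated Raji, Raji with TPCK, untreated DG75 and DG75 with TPCK. The other 6 arrays, 3 per line, came from cells given 50 µM Bay-11 for 1 h and served the estimate of the spread and a second contrast without control arrays. All groups were grown in RPMI medium with serum, and the solvent given to untreated cells is not given in the sources used here. The study's design text mentions TPCK for Raji alone, whereas the DG75 samples used here carry it in their titles and in the column headers. Raji carries Epstein-Barr virus and DG75 does not, but with 1 line of each kind the virus and every other property of the lines cannot be told apart.

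TPCK is a chloromethyl ketone that alkylates chymotrypsin-like proteases and reactive cysteines, and it is used to block activation of NF-kB, the transcription factor held in the cytoplasm by IkB proteins. NF-kB drives feedback inhibitors such as NFKBIA and TNFAIP3, chemokines such as CXCL8 and survival genes such as BCL2A1. Immediate early genes such as FOSB and p53 targets such as CDKN1A make short-lived transcripts whose levels can shift within an hour of a stress. In bulk RNA of this kind, fewer cells that express a gene and less RNA per cell cannot be told apart.

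Values are log2 signals after background correction and quantile normalization, differences of them are log2 changes ± SE, and p-values are those of limma adjusted by the Benjamini-Hochberg method over 10697 genes. A gene is called at an adjusted p under 0.05. Each array detected 13072 to 15903 probes, and the number of arrays limits the precision. Nothing in the labels says that the 3 arrays of a group are separate cultures, so the p-values cover no more than the scatter of these samples, possibly a technical one. Treated Raji arrays are numbered 1 to 6 in the deposited table, treated DG75 arrays 7 to 12 and controls 13 to 18, with no stated meaning. A batch that followed these numbers cannot be told apart from the TPCK effect within a line or from the difference between lines. All 6 B cell markers on the array were detected on every array. Array 7, of DG75 with TPCK, also carried transcripts of other tissues: 28 of 31 fibroblast and epithelium markers on the array were detected there, against 4 and 5 on the other arrays of its group. Their summed raw signal was 35900 on array 7, against 1380 and 1622 on arrays 8 and 9 and 1333 to 1554 on the untreated DG75 arrays. The difference between the lines, its list medians and the counts of called genes were therefore also computed without array 7. Counts within gene lists, the overlap of the lines and the contrast without control arrays rest on all arrays.

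No gene met the threshold for a difference between the lines: 0 of 10697 genes (0%) were called, and the lowest adjusted p was 0.129. At an unadjusted p under 0.05 there were 595 genes (5.56%), of which 203 (1.9%) had a positive and 392 (3.66%) a negative difference. Without array 7, 0 of 10606 genes (0%) were called, with a lowest adjusted p of 0.239 and 547 genes (5.16%) at an unadjusted p under 0.05. Without arrays 7 and 10, 784 genes (7.45%) reached that level and 0 were called. The absence of calls does not show equal responses. The median SE of a difference was 0.25, and the median 95% interval reached 0.54 to either side. For 8343 genes (78%) the whole interval lay between -1 and 1, and 71 genes (0.664%) had an estimate beyond that range. Differences had a median of -0.0042 over all genes and ran from -0.50 to 0.47 between the 5th and 95th percentiles.

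A small set of genes was called after TPCK in each line. In DG75, 53 genes (0.495%) were called, 18 up (0.168%) and 35 down (0.327%). In Raji, 47 genes (0.439%) were called, 25 up (0.234%) and 22 down (0.206%). The untreated lines differed from each other in 4163 genes (38.9%). Without array 10, a Bay-11 array that is in neither term of the difference, the DG75 count was 84. Counts ranged from 28 to 46 in DG75 and from 19 to 44 in Raji when 1 of the 12 arrays was left out. Without array 7, 39 genes were called in DG75 (13 up and 26 down) and 43 in Raji. Among DG75 calls named below, those of BCL2A1, BTG1, CLGN, HSPA1B, ID3, KLF5, PSMD12, RN7SK and ZNF800 were lost without array 7. Their changes kept their sign in that fit. The lines shared 16 called genes, 30.2% of those of DG75 and 34% of those of Raji. All 16 had the same direction in both lines, and 14 were farther from 0 in DG75. For 5 of the 16 the 95% interval of the difference excluded 0, and for 10 it lay between -1 and 1.

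**Figure D1:**
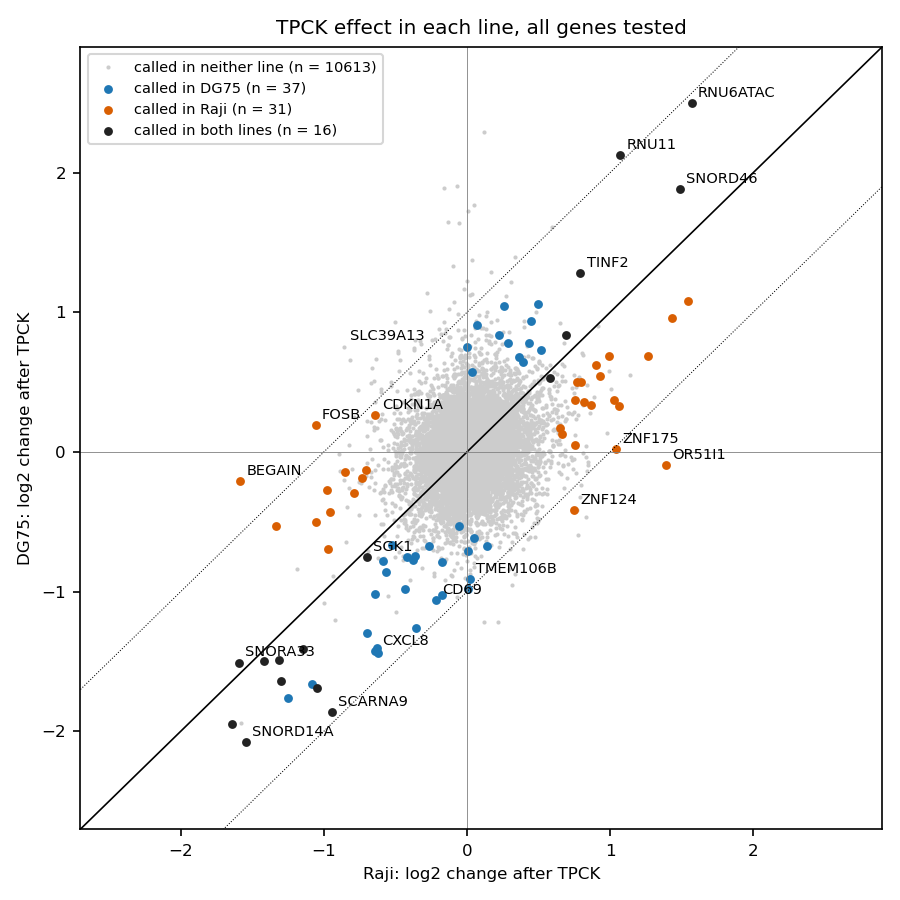
Log2 change after TPCK in Raji (horizontal axis) and in DG75 (vertical axis) for 10697 genes, each a point, coloured by the line in which it was called. The solid diagonal marks equal changes and the dotted lines a difference of 1 either way. The 16 genes called in both lines lie in the upper right and lower left, and RNU6ATAC and RNU11 stand farthest up.

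Of the 16 genes called in both lines, 12 are small noncoding RNAs and 4 are protein-coding genes or pseudogenes. RNU6ATAC, the U6atac RNA of the minor spliceosome, had the highest change in both lines. Its signal was 7.06, 6.65 and 6.76 on the untreated Raji arrays and 8.26, 8.43 and 8.50 after TPCK. In DG75 it was 6.52, 6.19 and 6.45 untreated and 8.84, 8.87 and 8.96 after TPCK. All treated arrays lay above all untreated ones in each line, and the treated DG75 arrays lay above the treated Raji arrays. RNU6ATAC rose 5.66-fold in DG75 (2.50 ± 0.13) and 2.97-fold in Raji (1.57 ± 0.13), and both calls held in each of 12 omissions of an array. Its difference of 0.93 ± 0.19 (95% interval 0.53 to 1.33, adjusted p = 0.281) was not called. Which form of this RNA the probe detects, the processed one or an extended precursor, was not tested. The same limit applies to the probes of RNU11, RN7SK and RPPH1 below.

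RNU11, the U11 RNA that recognises the 5′ splice site of minor introns, had the same order of treated above untreated arrays within each line. It read 7.51, 7.16 and 7.04 in untreated Raji and 8.08, 8.33 and 8.50 after TPCK. In DG75 the values were 6.02, 6.21 and 6.31 untreated and 8.04, 8.23 and 8.65 treated. The untreated DG75 arrays lay below the untreated Raji arrays, while the treated arrays of the lines overlapped. RNU11 rose 4.36-fold in DG75 (2.13 ± 0.19) and 2.10-fold in Raji (1.07 ± 0.19). The Raji call held in 8 of 12 omissions and the DG75 call in all 12. The difference was 1.06 ± 0.26 (0.50 to 1.62, adjusted p = 0.580), and 1.19 without array 7. RN7SK, the 7SK RNA that holds the elongation kinase P-TEFb inactive, rose in DG75 (0.83 ± 0.17, held in 4 of 12 omissions) and had a change of 0.23 ± 0.17 in Raji. RPPH1, the RNA of ribonuclease P, had a difference of 0.74 ± 0.26 with no call in either line. Of 28 minor spliceosome and other small RNAs listed, 6 were measured. Of those 6, 4 had a positive difference at an unadjusted p under 0.05 against 1.9% of all genes, and the list median was 0.67 (0.78 without array 7). Against Bay-11 in place of the untreated arrays, the median was 0.06, RNU6ATAC had a difference of 0.29 and RNU11 one of -0.27.

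Small nucleolar RNAs, which guide methylation (box C/D) and pseudouridylation (H/ACA) of ribosomal RNA, were called in both lines in several cases. SNORA33 read 9.52, 9.59 and 9.61 in untreated Raji and 7.87, 7.78 and 8.29 after TPCK, and 9.27, 9.19 and 9.36 in untreated DG75 and 7.72, 7.91 and 7.67 after TPCK. Treated and untreated arrays did not overlap in either line, and the treated arrays of the lines did. SNORA33 fell in Raji (-1.59 ± 0.13) and in DG75 (-1.51 ± 0.13), and the 95% interval of its difference was -0.31 to 0.48. SNORD48 (-1.42 ± 0.25 in Raji, -1.50 ± 0.25 in DG75) also fell in both lines, with an interval of -0.84 to 0.68. SNORD14A, a copy of the U14 RNA that takes part in processing of 18S ribosomal RNA, fell by 2.08 in DG75 and by 1.55 in Raji, and its interval ran from -1.23 to 0.17. SNORD46 rose in both lines (1.88 ± 0.16 in DG75, 1.49 ± 0.16 in Raji), and its interval was -0.08 to 0.86.

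Other small nucleolar RNAs stood apart more between the lines, without a call for the difference. SNORD14B fell in DG75 (-1.44 ± 0.15) and had a change of -0.62 ± 0.15 in Raji, a difference of -0.82 ± 0.21 (-1.27 to -0.37). SNORD54 fell in Raji, where it was detected on all 3 untreated arrays and on 0 of 3 treated ones, by at least 2.12-fold. In DG75 it was detected on 2 of 3 untreated arrays and 0 of 3 treated ones, and the uncalled change there was -0.53 ± 0.18, at least 1.06-fold lower after TPCK. SCARNA9, a guide RNA of Cajal bodies that modifies spliceosomal RNAs, fell in DG75 (-1.86 ± 0.19) and in Raji (-0.95 ± 0.19), although the Raji call held in 2 of 12 omissions. Its difference was -0.92 ± 0.27 (-0.71 without array 7). SNORD13 differed by -1.37 ± 0.41 with all arrays and by -1.76 without array 7, and was called in neither line. Over 36 box C/D RNAs the median change was -0.46 in DG75 and -0.42 in Raji, and the median difference was -0.19. Of these, 27 had a negative difference, and 3 were positive and 5 negative at an unadjusted p under 0.05, against 1.9% and 3.66% of all genes. The 95% interval lay between -1 and 1 for 19 of the 36, against 78% of all genes. Over 10 H/ACA RNAs the medians were -0.51 and -0.45, and 0 differed at that level. Whether such probes report the mature RNA or a longer host transcript was not tested.

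The protein-coding genes called in both lines included SGK1, a serum-induced kinase. It read 11.22, 11.21 and 11.38 in untreated Raji and 10.59, 10.66 and 10.48 after TPCK. In DG75 it read 9.35, 9.35 and 9.28 untreated and 8.83, 8.41 and 8.48 treated. The lines were apart in level, and within each line the treated arrays lay below the untreated ones. SGK1 fell by 0.70 in Raji and by 0.75 in DG75, and the 95% interval of the difference was -0.46 to 0.35. Those calls held in 4 of 12 omissions in Raji and 8 of 12 in DG75. TINF2, a subunit of the telomere-capping shelterin complex, rose in DG75 (1.28 ± 0.13) and in Raji (0.79 ± 0.13), a difference of 0.49 ± 0.19.

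The early response gene FOSB and the p53 targets CDKN1A and GADD45A fell in Raji and were not called in DG75. FOSB, which pairs with JUN proteins to form AP-1, had the lowest p on the positive side. The 300 bases around its transcription start in RefSeq (GRCh38.p14, chr19:45467746-45468045, plus strand) are shown because promoters of such early genes carry response elements. Capitals mark matches, on either strand, to TGACGT, the core of the cyclic AMP response element, and to TATAAA.
FOSB: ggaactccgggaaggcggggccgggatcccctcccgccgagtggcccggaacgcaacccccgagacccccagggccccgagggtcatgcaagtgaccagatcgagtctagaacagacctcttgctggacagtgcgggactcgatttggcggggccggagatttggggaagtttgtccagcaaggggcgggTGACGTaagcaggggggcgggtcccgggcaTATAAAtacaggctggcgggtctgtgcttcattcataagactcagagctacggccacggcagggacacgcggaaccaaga
The TGACGT match begins at -60 and the TATAAA match at -30 from the start. Of 35116 promoters of this length, 7.98% hold TGACGT and 11.5% hold TATAAA. No match to GGNNTTTCC, the kB motif, or to TGANTCA, the AP-1 motif, lies in this window, which says only that those letters are not in it.

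FOSB read 9.80, 9.84 and 9.65 on the untreated Raji arrays and 8.77, 8.77 and 8.58 after TPCK. In DG75 it read 8.36, 8.41 and 8.59 untreated and 8.97, 8.63 and 8.35 treated, with array 7 at 8.97. In Raji the treated arrays all lay below the untreated ones, whereas in DG75 treated and untreated arrays overlapped. FOSB fell in Raji (-1.06 ± 0.16, adjusted p = 0.0046, held in 12 of 12 omissions) and had a change of 0.19 ± 0.16 in DG75. Its difference was 1.25 ± 0.22 (0.77 to 1.72, adjusted p = 0.129), and 1.09 without array 7. The untreated lines differed by -1.31 in FOSB, DG75 being lower, and after TPCK the group means were 8.71 in Raji and 8.65 in DG75. Against Bay-11 in place of the untreated arrays, FOSB had a difference of -0.04.

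CDKN1A, the p21 inhibitor of cyclin-dependent kinases and a p53 target, read 10.25, 10.40 and 10.01 in untreated Raji and 9.64, 9.50 and 9.60 after TPCK. In DG75 the values were 9.86, 9.95 and 10.24 untreated and 10.25, 10.33 and 10.25 treated. The Raji groups were apart, and the treated DG75 arrays lay just above the untreated ones. CDKN1A fell in Raji (-0.64 ± 0.13, held in 2 of 12 omissions) and had a change of 0.26 ± 0.13 in DG75. The difference was 0.90 ± 0.19 (0.51 to 1.29, adjusted p = 0.281), and it was -0.25 against Bay-11. GADD45A, a p53 target that responds to DNA damage, fell in Raji (-0.70 ± 0.15, held in 3 of 12 omissions) and had a change of -0.13 ± 0.15 in DG75, a difference of 0.57 ± 0.21. SESN1, a p53 target of the sestrin family, had a difference of 0.86 ± 0.32 (0.64 without array 7) and no call in either line. Among 22 measured p53 targets, 0 were called for the difference, 5 had a positive and 0 a negative difference at an unadjusted p under 0.05 (1.9% and 3.66% of all genes), and the median was 0.13 (-0.08 in DG75, -0.23 in Raji). In the contrast without control arrays the median of this list was -0.25.

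Other early genes moved in different ways. ID3, an inhibitor of helix-loop-helix factors, rose in DG75 (0.75 ± 0.14, held in 7 of 12 omissions) with a change within 0.01 of 0 in Raji, a difference of 0.75 ± 0.20. BTG1, an antiproliferative gene, fell in DG75 (-0.53 ± 0.11, held in 2 of 12 omissions), and its change in Raji was -0.06 ± 0.11. KLF6, a zinc finger factor, fell in Raji (-0.96 ± 0.19, held in 3 of 12 omissions) with -0.43 ± 0.19 in DG75, and the interval of the difference was -0.04 to 1.11. Of 32 measured immediate early genes, 5 had a positive and 2 a negative difference at an unadjusted p under 0.05, against 1.9% and 3.66% of all genes. Their median was 0.22 (0.17 without array 7), and it was within 0.01 of 0 in the contrast without control arrays. BHLHE40, a circadian repressor, had an estimate of 1.47 ± 0.45 that was 0.92 without array 7. In a list of 30 unstable mRNAs of zinc finger and signalling genes, which also holds CDKN1A and BHLHE40, 5 were positive and 4 negative at an unadjusted p under 0.05, with a median of -0.09. RGS2, a brake on G protein signalling, was among the negative ones (-0.80 ± 0.22).

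**Figure D2:**
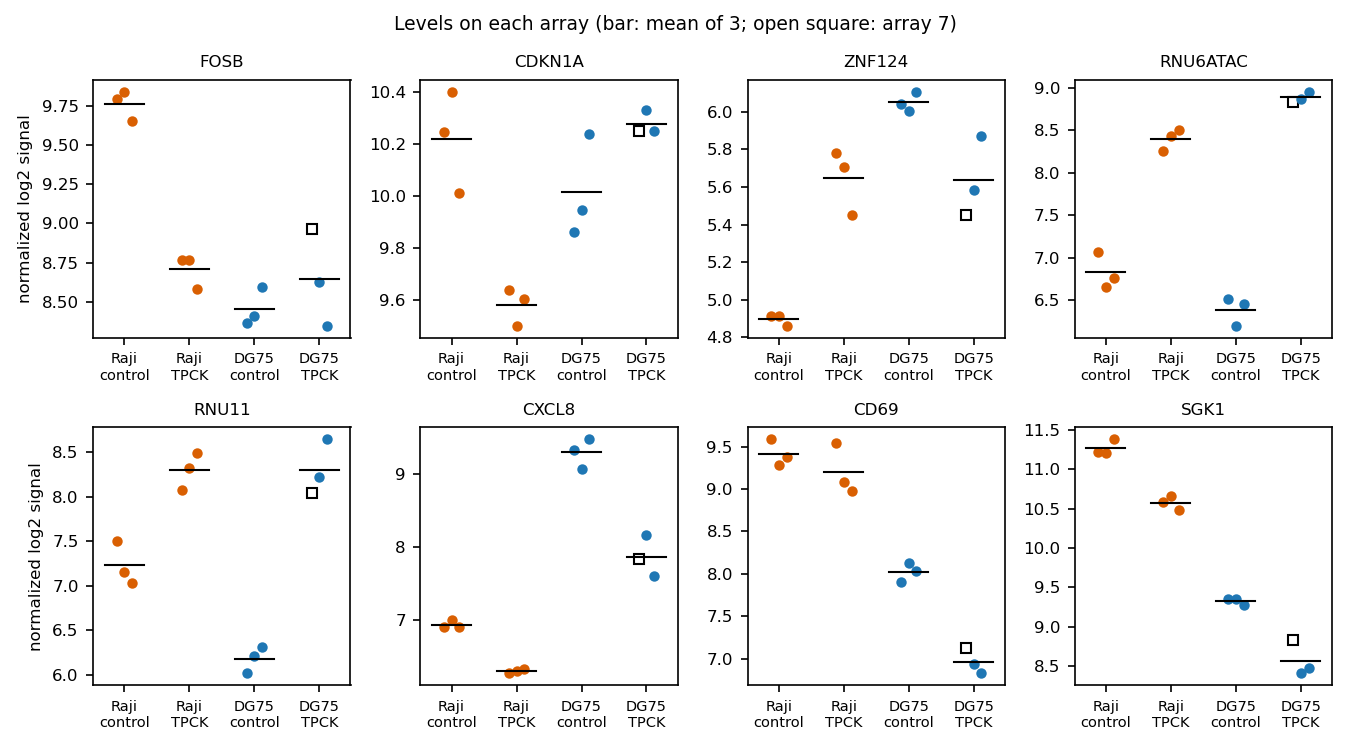
Normalized log2 signal of 8 genes on each array of the 4 groups, with a bar at the mean of 3 arrays and array 7 as an open square. FOSB and CDKN1A were lower after TPCK in Raji while the DG75 arrays stayed near or above their untreated level, CXCL8 was lower after TPCK in both lines, and RNU6ATAC and RNU11 were higher in both.

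Of the NF-kB targets, CXCL8, CD69 and BCL2A1 fell in DG75 and none was called in Raji. CXCL8, the neutrophil chemokine interleukin-8, is a classical target, and its RefSeq promoter (GRCh38.p14, chr4:73740319-73740618, plus strand) is shown for its kB site. Capitals mark matches to TGANTCA, GGNNTTTCC and TATAAA, searched on both strands.
CXCL8: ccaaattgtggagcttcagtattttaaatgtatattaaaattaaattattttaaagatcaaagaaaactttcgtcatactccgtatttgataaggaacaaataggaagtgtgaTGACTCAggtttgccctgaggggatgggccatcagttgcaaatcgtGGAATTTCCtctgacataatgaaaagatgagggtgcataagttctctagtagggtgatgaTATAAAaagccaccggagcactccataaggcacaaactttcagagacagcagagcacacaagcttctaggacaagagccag
The matches begin at -137 (TGANTCA), -91 (GGNNTTTCC) and -31 (TATAAA) from the transcription start and do not overlap. Of the 35116 promoters, 7.71% hold TGANTCA and 6.26% hold GGNNTTTCC.

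CXCL8 read 9.33, 9.07 and 9.47 in untreated DG75 and 7.83, 8.16 and 7.60 after TPCK. In Raji it read 6.90, 7.01 and 6.91 untreated and 6.28, 6.30 and 6.33 treated. Treated and untreated arrays did not overlap in either line, and all DG75 arrays lay above all Raji arrays. CXCL8 fell in DG75 (-1.43 ± 0.19, adjusted p = 0.00064, held in 12 of 12 omissions), and its change of -0.64 ± 0.19 in Raji was not called. The difference was -0.79 ± 0.26 (-1.34 to -0.23, adjusted p = 0.853), and it was -0.77 without array 7.

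CD69, an early activation marker of lymphocytes, read 7.90, 8.13 and 8.04 in untreated DG75 and 7.13, 6.93 and 6.83 after TPCK. In Raji it read 9.59, 9.28 and 9.37 untreated and 9.54, 9.08 and 8.97 treated. The DG75 groups were apart and the Raji groups overlapped. CD69 fell in DG75 (-1.06 ± 0.18, held in 10 of 12 omissions) and had a change of -0.22 ± 0.18 in Raji, a difference of -0.84 ± 0.26 (-1.39 to -0.29). It was -1.08 in the contrast without control arrays. BCL2A1, an anti-apoptotic BCL2 relative, fell in DG75 (-1.03 ± 0.21, held in 4 of 12 omissions) with -0.17 ± 0.21 in Raji. Its difference of -0.86 ± 0.29 had an interval of -1.48 to -0.23 and was not called.

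The feedback inhibitors of NF-kB had intervals that included 0. NFKBIA, which encodes IkB alpha, read 12.37, 12.46 and 12.50 in untreated Raji and 12.19, 12.15 and 11.81 after TPCK. In DG75 it read 12.09, 12.36 and 12.15 untreated and 11.39, 11.90 and 11.70 treated. In both lines the treated arrays lay below the untreated ones, and neither change was called (-0.39 ± 0.19 in Raji, -0.54 ± 0.19 in DG75). The interval of the NFKBIA difference was -0.71 to 0.43, and that of TNFAIP3, the deubiquitinase A20, was -0.97 to 0.37. NFKBIZ, a nuclear IkB protein, had a difference of -0.52 ± 0.15, but 0.01 with the probe of largest variance. BCL3, another nuclear IkB protein, differed by 0.65 ± 0.20 and NFKBIB, IkB beta, by 0.65 ± 0.20, with no call. Over 46 NF-kB targets, 3 were called down in DG75 (0.327% of all genes were) and 0 in Raji (0.206% of all genes were). Of the 46, 4 had a positive and 4 a negative difference at an unadjusted p under 0.05, against 1.9% and 3.66% of all genes, and the median was 0.06 (0.10 without array 7). Of 33 pathway components, 2 were positive and 0 negative, with a median of 0.07 (0.18 without array 7).

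Zinc finger genes made up a share of the negative differences. ZNF124, a KRAB zinc finger gene, read 4.91, 4.91 and 4.86 in untreated Raji, where it was not detected, and 5.78, 5.71 and 5.45 after TPCK. In DG75 it read 6.04, 6.0 and 6.11 untreated and 5.45, 5.58 and 5.87 treated. The groups were apart within each line, with opposite order. ZNF124 rose in Raji by at least 1.45-fold (0.75 ± 0.15, held in 3 of 12 omissions) and had a change of -0.41 ± 0.15 in DG75. The difference was -1.17 ± 0.21 (-1.62 to -0.71, adjusted p = 0.129), but a second probe of ZNF124 gave 0.05 ± 0.21.

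ZNF175 read 4.91, 5.15 and 4.75 in untreated Raji and 5.83, 6.09 and 6.01 after TPCK. It rose there by at least 1.83-fold (held in 12 of 12 omissions). In Raji it was detected on 0 of 3 untreated arrays, 3 of 3 after TPCK and 3 of 3 after Bay-11. Against Bay-11 in place of the untreated arrays, ZNF175 had a difference of -0.08. On the DG75 arrays ZNF175 was not detected, so its difference of -1.02 ± 0.18 (adjusted p = 0.129) sets a change in Raji against values at background. ZNF800 fell in DG75 (-0.67 ± 0.14, held in 0 of 12 omissions), with 0.14 ± 0.14 in Raji. ZNF567 (-1.08 ± 0.24) and ZNF658 (-1.18 ± 0.28) had no call in either line. In Raji, ZNF567 was detected on 0 of 3 untreated arrays and 2 of 3 after TPCK. In DG75 the counts for ZNF567 were 3 of 3 and 0 of 3. ZNF658 was detected on 1 of 3 untreated Raji arrays and on 3 of 3 in each other tested group. Of 311 measured ZNF genes, 0 were called for the difference, 7 had a positive and 32 a negative difference at an unadjusted p under 0.05, against 3.66% negative among all genes. In all, 203 of the 311 were below 0, and the median was -0.12 (0.01 in DG75, 0.14 in Raji, and -0.10 for the difference without array 7).

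Replication-dependent histone genes, whose mRNAs end in a stem-loop in place of a poly(A) tail, also had a negative median. Of 36 measured, 27 had a negative difference, 5 negative and 1 positive at an unadjusted p under 0.05 (3.66% and 1.9% of all genes), and the median was -0.29 (0.12 in DG75, 0.32 in Raji, and -0.23 without array 7). H2AC18 had a difference of -0.65 ± 0.21 and no call in either line. H2BC21, which was not detected in untreated Raji, rose there by at least 1.57-fold, and the interval of its difference was -1.09 to 0.14. Whether the histone probes report the mature mRNA or a longer transcript was not tested.

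Further leading genes were mostly near background or called in 1 line. PLEKHF1, a lysosomal adaptor, rose in DG75 (1.05 ± 0.13, held in 12 of 12 omissions), where it read 6.43, 6.39 and 6.31 untreated and 7.23, 7.57 and 7.46 treated. In Raji it read 6.50, 6.68 and 6.52 untreated and 6.99, 6.83 and 6.66 treated. The DG75 groups stood far apart and the Raji groups overlapped, and the difference was 0.78 ± 0.18 (0.40 to 1.17). TMEM106B, a lysosomal membrane protein, fell in DG75 (-0.91 ± 0.14, held in 12 of 12 omissions) and was not detected on any Raji array. A second TMEM106B probe gave a difference of -0.42 ± 0.25, against -0.93 ± 0.20. CLGN, a testis chaperone, was likewise not detected in Raji and fell in DG75 (-0.62 ± 0.12, held in 6 of 12 omissions).

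BEGAIN, a postsynaptic scaffold gene, fell in Raji (-1.58 ± 0.21, held in 12 of 12 omissions), and its change in DG75 was -0.21 ± 0.21. It read 6.08, 6.76 and 6.35 in untreated Raji and 5.30, 4.48 and 4.65 after TPCK, and 4.77 to 5.30 on the 6 DG75 arrays. The untreated Raji arrays thus lay above all others, and the difference was 1.38 ± 0.29 (adjusted p = 0.281). OR51I1, an olfactory receptor gene, rose in Raji (1.39 ± 0.18, held in 12 of 12 omissions). Its signal there was 4.75, 5.30 and 4.97 untreated and 6.11, 6.21 and 6.87 treated, and it was not detected on any DG75 array. It had the lowest p of all genes (-1.48 ± 0.25, adjusted p = 0.129). SLC39A13, a zinc transporter, had the highest positive estimate of the leading genes (1.61 ± 0.34, 0.89 to 2.33) with opposite uncalled changes in the lines (0.75 in DG75, -0.86 in Raji). RCHY1, a ubiquitin ligase of p53, differed by 1.17 ± 0.27 (0.99 without array 7), with no call in either line.

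**Figure D3:**
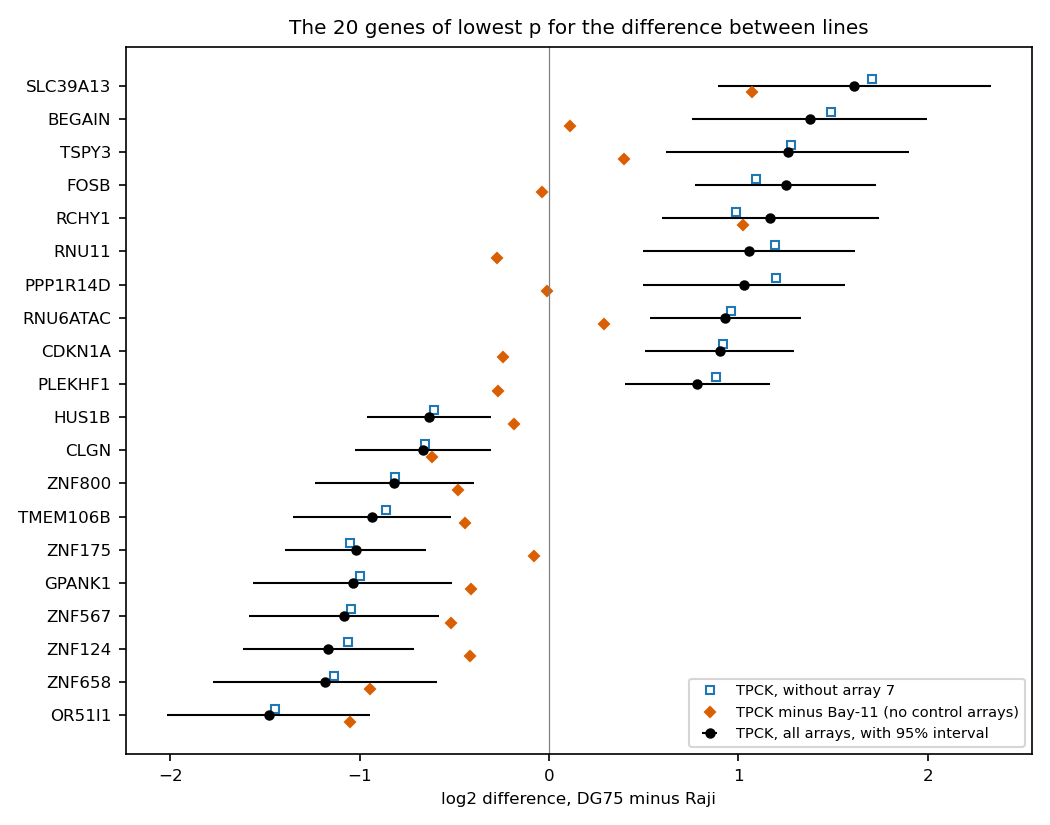
Difference in the TPCK effect, DG75 minus Raji, on the log2 scale for the 10 genes of lowest p on each side, as estimate and 95% interval over all arrays, without array 7 (squares) and in the contrast of TPCK with Bay-11 (diamonds). The squares stay close to the estimates, while for 6 of 20 genes the diamonds lie within 0.25 of 0.

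The 10 genes of lowest p on each side were chosen by the difference itself, so their counts are a description. Without array 7, 20 of 20 had the same sign, which that choice largely fixes. In 15 of 20 the effects of the lines had opposite signs, but in 9 of 20 the effect in 1 line was within 0.25 of 0. The opposite signs of TMEM106B, CLGN and OR51I1 include a line in which the gene was not detected. Of the 20, 6 were called in DG75 and 8 in Raji. Only 7 of the 20 were detected on all 12 arrays, against 7441 of 10697 genes tested. The contrast of TPCK with Bay-11, which uses no control array but includes arrays 7 and 10, called 0 genes (0%). At an unadjusted p under 0.05 it held 902 genes (8.43%). In it 15 of the 20 kept their sign, 6 lay within 0.25 of 0 and 3 kept at least 0.75 of the difference. Those 3 were RCHY1 (1.02), ZNF658 (-0.95) and CLGN (-0.62). RCHY1 was near background, being detected on 0 of 3 Raji arrays with TPCK and 2 of 3 with Bay-11. In DG75 it was detected on 2 of 3 with TPCK and 0 of 3 with Bay-11. The Bay-11 effect shares its control arrays with the TPCK effect. For FOSB the difference between lines in the Bay-11 effect was 1.28, for CDKN1A 1.15, for RNU11 1.33 and for CD69 0.24.

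Of 84 genes called in either line, 74 had the same direction in both. For 48 of the 84 the 95% interval of the difference excluded 0, for 38 it lay between -1 and 1, and 6 had an estimate beyond that range. As calling a gene in a line uses a term of the difference, these counts describe the genes and test nothing. Of the 84, 57 were detected on all 12 arrays. KLF5 and SOX11, picked out after their values were seen, joined TMEM106B and CLGN as genes detected on no Raji array. KLF5, a zinc finger factor, fell in DG75 (-0.98 ± 0.19), and SOX11, a developmental factor, rose there (0.91 ± 0.16). Each held in 8 of 12 omissions.

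Median differences of the heat shock, NRF2 and ATF4 lists ran from -0.01 to 0.14, against 0.13 for the p53 targets. HSPA1B, an inducible HSP70 chaperone, rose in DG75 (0.68 ± 0.14, held in 4 of 12 omissions) with 0.36 ± 0.14 in Raji, and the interval of its difference was -0.10 to 0.73. Over 27 heat shock and chaperone genes the median difference was 0.14, and over 23 NRF2 and glutathione genes 0.08. HSPA1A, also of the HSP70 family, was the only heat shock list member at an unadjusted p under 0.05 (3.7% of the list, against 5.56% of all genes). Its difference was 0.62 ± 0.26 (0.52 without array 7), with uncalled changes of 0.70 ± 0.19 in DG75 and 0.09 ± 0.19 in Raji. HMOX1, heme oxygenase 1, was detected on 0 of 6 Raji arrays. CHAC1, a target of the stress factor ATF4 that breaks down glutathione, rose in Raji by at least 1.07-fold (held in 6 of 12 omissions), and its interval was -0.81 to 0.26. ATF3, a stress-induced transcription factor, had an interval of -0.11 to 1.14. Of 33 genes of the ATF4 and unfolded protein response, DNAJB9, a chaperone of the endoplasmic reticulum, was the only one at an unadjusted p under 0.05 (-0.78 ± 0.24), and the median was -0.01. That is 3.03% of this list, against 5.56% of all genes. Over 74 cytosolic ribosomal protein genes the median was 0.04, and the interval of 70 lay between -1 and 1. Over 37 genes of B cell identity the median was 0.02, with 0 at an unadjusted p under 0.05.

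Over 30 interferon-stimulated genes the median difference was 0.21 (0.13 without array 7). At an unadjusted p under 0.05, 2 were positive and 1 negative, against 1.9% and 3.66% of all genes. These were ISG15, a ubiquitin-like modifier (0.52 ± 0.24), OAS2, a sensor of double-stranded RNA (0.37 ± 0.15), and SAMD9 (-0.70 ± 0.28). Of 31 BCL2 family and apoptosis genes, BCL2L1, which encodes BCL-XL, was positive (0.53 ± 0.24, 0.37 without array 7) and BCL2A1 negative, with a median of 0.03. Of 27 hypoxia-response genes, the lipid droplet gene HILPDA (-0.89 ± 0.35) and the glycolytic enzyme HK2 (-0.57 ± 0.20) were negative and the collagen hydroxylase P4HA2 (0.54 ± 0.24) positive, with a median of 0.02. Of 28 proteasome genes, PSMA2 was negative (-0.54 ± 0.21), and PSMD12 fell in DG75 (-0.75 ± 0.15, held in 2 of 12 omissions) with an interval of the difference of -0.84 to 0.07. The share at an unadjusted p under 0.05 was 10% of the interferon list and 6.45% of the apoptosis list. It was 11.1% of the hypoxia list, 3.57% of the proteasome list and 5.56% of all genes. Medians were near 0 for 19 cholesterol synthesis genes (-0.01), 22 snoRNA host genes (-0.03), 19 MHC class II genes (0.06) and 34 genes of RNA polymerase I and ribosome biogenesis (-0.07). They were -0.09 for 7 microRNA transcripts, -0.07 for 5 globin and erythroid genes and 0.05 for 8 markers of T cells, NK cells and myeloid cells.

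Some list medians lay nearer 0 without array 7. All 8 measured fibroblast and epithelium markers had a positive difference, with a median of 0.94 that was 0.08 without array 7. MUC1 differed by 1.97 ± 1.29 with array 7, on which alone of the 12 arrays it was detected, and by 0.17 without it. The median of the list of metallothioneins and zinc genes was 0.26 over 7 genes, and 0.10 over the 6 measured without array 7. Medians of MHC class I genes (0.19, and 0.04 without array 7) and of host genes associated with Epstein-Barr virus (0.17, and 0.01) were likewise lower.

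**Figure D4:**
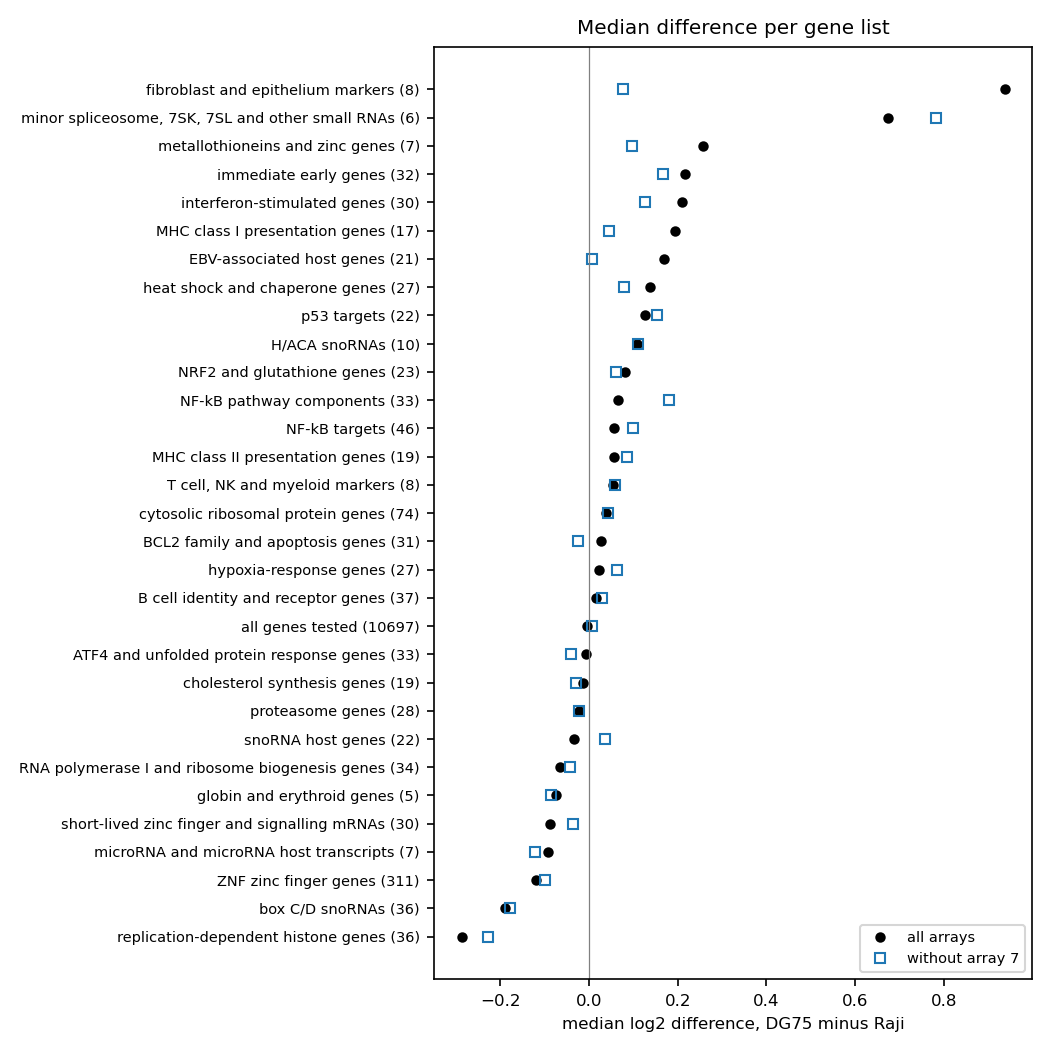
Median log2 difference in the TPCK effect, DG75 minus Raji, of each gene list with at least 5 measured genes (number in brackets), with all arrays (points) and without array 7 (squares). Fibroblast and epithelium markers move from 0.94 to 0.08 without array 7, while small RNAs, histone genes and ZNF genes stay on their side of 0.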

How the data were processed

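Total RNA was taken with Trizol and RNeasy kits, treated with DNase and labelled as biotinylated cRNA with the Ambion MessageAmp kit, per the labels' protocols. For 49576 probes the authors deposited raw bead signals as log2 values, not normalized, each with a detection p-value, per the file headers. The image and export software and its settings were not stated in the sources used here. The line and treatment in a column's name gave its group, and all columns were assigned. The series' value table, which the authors deposited as log2 values with unstated centring and normalization, was not used, since its Raji columns are centred near 0 (medians -0.11 to 0.15) and its DG75 control and TPCK columns are not (medians 5.93 to 6.70).

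Signals were background corrected by normexp with an offset of 16, using the detection p-values, quantile normalized and filtered for a detection p below 0.01 on 3 or more arrays (17652 probes, limma 3.58.1, R 4.3.3). Of these, 14195 had 1 symbol in the platform annotation and 3457 had none. The kept probe of highest mean stood for a gene. With lmFit and eBayes, 6 group means were estimated from the 18 arrays (12 residual and 4.26 prior degrees of freedom), and the procedure was tested on simulated data. Folds written "at least" set the brighter mean against the higher, per array, of that probe's value and the dimmest detected probe.

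Named genes were any called for the difference, the 10 of lowest p on each side, the 10 with the largest called change per line, up to 3 per list and a fixed set. TINF2, RN7SK, KLF5 and SOX11 fall outside this rule and were picked with their values in view. The contrast, the 31 gene lists and the rule were chosen with earlier results of these data known. Promoter sequences are RefSeq's, of GRCh38.p14, and the promoters of RNU6ATAC and RNU11 are not shown. The alternatives covered arrays, array weights, normalization, background correction, offset, filter, probe choice and moderation.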

Additional observations from a re-analysis of the deposited data

Results flagged for a closer look

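A probe without a gene symbol in the tables used, ILMN_1730780, stood outside the gene-level comparison and was the only one of 17652 kept probes called for the difference between lines when every kept probe was tested singly. It read 6.83, 6.72 and 7.24 on the untreated DG75 arrays and 4.42, 4.31 and 4.49 after TPCK. On the 3 treated DG75 arrays and on all Raji arrays it was not detected, so DG75 with TPCK was at least 4.04-fold lower than untreated DG75. The change was -2.52 ± 0.16 in DG75 and -0.22 ± 0.16 in Raji, and the difference was -2.309 ± 0.230 (adjusted p = 4.49e-04 by limma over the 17652 probes). The call held in 12 of 12 omissions of an array, with adjusted p from 0.000827 to 0.00319 and differences from -2.42 to -2.17. After Bay-11 the probe's change in DG75 was -2.18, and the difference between lines in TPCK against Bay-11 was -0.21 ± 0.23. As the probe was at background in Raji throughout, a fall in that line could not have been seen.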

How the results depend on the processing

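The difference between lines called 0 genes in either direction when any 1 of the 12 arrays was left out, with lowest adjusted p from 0.0619 without array 17 to 0.405 without array 14. With array weights, 1 gene was called above 0, FOSB (1.29, adjusted p = 0.0145), and 3 below 0, ZNF124 (-1.20, 0.0145), TMEM106B (-0.99, 0.0359) and ZNF175 (-1.03, 0.0359), with array 10 at a weight of 0.169. With every kept probe tested singly, 1 was called below 0. The other alternatives called 0. Without arrays 7 and 10 the lowest adjusted p was 0.100. Of the values of named genes under the alternatives, 2917 kept their sign and stayed uncalled.

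Genes called in DG75 were 84 without array 10, 81 with only the 12 arrays less array 7 (chosen after seeing the data), 13 without normalization between arrays, and 28 to 46 over single omissions (28 without array 14, 30 without array 13, 33 without array 9). In Raji they were 77 with only the 12 arrays, 74 with those less array 7, 139 with array weights, 5059 without normalization, and 19 to 44 over single omissions (19 without array 2, 22 without array 1 or 16, 23 without 17, 26 without 18, 28 without 3, 30 without 13). Of 53 DG75 calls 25 held in every omission, of 47 Raji calls 15, and of the 16 shared calls 7 in both lines. Without normalization the median of all differences was -0.25 and raw signals averaged 242.6 to 282.2 on treated and 171.5 to 201.6 on untreated Raji arrays. The part of array brightness in those calls was not tested.

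Signs turned as follows, NFKBIZ from -0.52 and CASP9 from 0.41 among them. Without normalization: CD3D -0.55, CD79A -0.12, DHCR7 -0.025, FCER2 -0.24, HLA-DQB1 -0.074, HMOX1 0.17, HSPA1B -0.024, NOP14 -0.036, PSMB9 -0.02, RFXANK -0.15, SLC3A2 -0.090, SNORA10 -0.032 and SNORA33 -0.15. With median centring: CD3D -0.30, CHAC1 0.10 and HMOX1 0.42. With the probe of largest variance: CASP9 -0.30, NFKBIZ 0.0052, RPL26L1 0.039 and SLC3A2 -0.57. Over single omissions CD3D ran from -0.0012 to 0.23, HBE1 from -0.24 to 0.069, HMOX1 from -0.30 to 0.20, SGK1 from -0.18 to 0.026, SNORA33 from -0.015 to 0.24 and SNORD48 from -0.22 to 0.023. The cause was not tested. No paired analysis was possible because the columns of the raw table carry no replicate numbers. The series' value table was not run as an alternative, because its columns of the lines are on unlike scales. Probes near background, as for 13 of the 20 leading genes not detected on all 12 arrays, limit what can be compared between lines.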
